A study of Homo sapiens with 12 samples.

Results

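The genes described here are 42 genes of the cell division cycle that act in DNA replication or in mitosis, chosen by gene symbol. Of these, 18 form the replication group (MCM2, MCM3, MCM4, MCM5, MCM6, MCM7, PCNA, RRM1, RRM2, TYMS, CDC6, CDT1, GINS2, ORC1, E2F1, CCNE1, CCNE2 and UHRF1). The other 24 form the mitotic group (CDC20, CDK1, CCNA2, CCNB1, CCNB2, AURKA, AURKB, PLK1, BUB1, BUB1B, TTK, TOP2A, MKI67, BIRC5, KIF11, KIF20A, KIF23, CENPE, CENPF, TPX2, NUSAP1, FOXM1, UBE2C and PTTG1). All 42 were found among the 56508 gene symbols of the table, and all 42 passed the filter on low values that left 15456 genes tested. The samples were H82 and H211, 2 human lines of small cell lung cancer, each labelled wild type and lung. Each line was grown with ORY-1001, an inhibitor of the histone demethylase LSD1, at 1 µM, or without it as a control, with 3 mRNA libraries in each of the 4 groups and 12 in all. The sample labels call the control PBS and give 7 days, whereas the treatment protocol speaks of vehicle and 10 days; which applied is not settled here. Both are established cell lines, and the labels do not say that replicates came from separate cultures, so the spread behind each p-value is that between these libraries and may be technical.

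Replication starts at origins that the origin recognition complex, with ORC1, marks and on which CDC6 and CDT1 load the MCM2 to MCM7 helicase. E2F factors switch on the genes of this step and of nucleotide supply as cells enter S phase. The mitotic genes act later: CDK1 with cyclins A and B drives entry, Aurora kinases, kinesins and the spindle checkpoint move and guard the chromosomes, and CDC20 and UBE2C work with the anaphase-promoting complex to end mitosis. Many mitotic genes are switched on by the MuvB complex with B-MYB and FOXM1. Small cell lung cancer is known as a fast-dividing tumour in which both sets of genes are highly expressed. In bulk libraries, fewer cells in a phase and less of a transcript in each cell cannot be told apart.

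Values are rescaled TPM (a unit that corrects for gene length and library size) and their depth is unknown. Column totals ran from 967415 to 1111988, and mitochondrial genes took 5.2% to 13.5% of a column. TOP2A and AURKB, the markers of dividing cells, summed to 450 to 481 in H82 ORY-1001 libraries, against 543 to 552 in H82 controls, and to 219 to 228 in H211 ORY-1001 libraries, against 249.4 to 265 in H211 controls. Of the 2, TOP2A was called lower with ORY-1001 in both lines and AURKB in neither (log2 fold change -0.12 in H82 and -0.00267 in H211). KDM1A, which encodes LSD1, stood at 190.4 ± 8.17 and 184 ± 2.43 in treated and control H82 libraries and at 188 ± 4.68 and 185 ± 2.57 in treated and control H211 libraries (SD, n = 3 each; limma adjusted p = 0.354 and 0.663). Of 5 markers of lung epithelium 4 stayed under 1 in all 12 libraries, with SFTPC and SCGB1A1 at 0; the other, FOXJ1, had 1.02 to 1.67 in H211 libraries and was under 1 in H82. In blood transcripts 4 libraries differed from the others of their own group, in either direction, namely H82 ORY-1001 replicate 3, H211 control replicates 1 and 2 and H211 ORY-1001 replicate 3. H211 ORY-1001 replicate 3 had the lowest erythroid sum of all and the highest myeloid sum of its group. The 7 myeloid markers summed to 25.7 to 33.0 in H82 ORY-1001 libraries, against 0.349 to 0.541 in H82 controls, where 4 of them were at 0, and to 1.84 to 30.4 in H211 ORY-1001 libraries, against 2.72 to 153.6 in H211 controls. All 3 treated H82 libraries, the kept replicates 1 and 2 included, thus held myeloid transcripts. Every treated H82 library had a higher myeloid sum than every H82 control. No alternative fit can therefore tell ORY-1001 apart from this difference between libraries in H82. The 6 erythroid markers summed to 0.832 to 115.5 and 0.249 to 45.6 in the treated H82 and H211 libraries, against 40.7 to 55.2 and 41.4 to 108.9 in the controls. The 3 fibroblast markers summed to 63.6 to 70.4 in H211 ORY-1001 libraries, nearly all of it DCN, against 5.53 to 5.95 in H211 controls. The 8 neuroendocrine markers summed to 373 to 379 in H82 ORY-1001 libraries, against 544 to 552 in H82 controls, and to 87.2 to 94.8 in H211 ORY-1001 libraries, against 70.9 to 76.4 in H211 controls. Most of the H211 sum was NCAM1, at 68.8 to 73.8 in treated and 54.18 to 58.55 in control libraries. In H82, NEUROD1 changed little, with 122.9 to 133.6 in treated and 134.9 to 139 in control libraries. What part these transcripts had in the results was not tested, and results that changed without the 4 libraries are given as such. That fit keeps 1 H211 control, 2 treated H211 libraries, 2 treated H82 libraries and 3 H82 controls, so the lone H211 control is assumed to vary like the other groups. Over all genes it called 312 higher and 247 lower with ORY-1001 in H211, against 1383 and 1485 in the fit of all 12 libraries.

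Promoter sequences are shown for the 2 replication and 2 mitotic genes with the smallest p for ORY-1001 in each line, 5 genes in all, to set replication genes beside mitotic ones. Each is 300 bases of RefSeq (GRCh38.p14), 5′ to 3′ on the strand of the gene, from 250 bases before the start of the transcript to 50 after it. RRM2 had 2 listed starts, and the window of the first is shown. Capitals mark 3 kinds of word found on either strand: the E2F words TTTCCCGC, TTTCGCGC, TTTGCCGC and TTTGGCGC, the words TTTGAA and TTCGAA of the cell cycle homology region (CHR) that the MuvB complex is known to bind, and CCAAT, the word of the factor NF-Y. The windows lie at chr6:52284693-52284992 on the minus strand for MCM3, chr16:88803539-88803838 on the plus strand for CDT1, chr2:10122489-10122788 on the plus strand for RRM2, chr17:40417847-40418146 on the minus strand for TOP2A and chr4:121823834-121824133 on the minus strand for CCNA2.
MCM3: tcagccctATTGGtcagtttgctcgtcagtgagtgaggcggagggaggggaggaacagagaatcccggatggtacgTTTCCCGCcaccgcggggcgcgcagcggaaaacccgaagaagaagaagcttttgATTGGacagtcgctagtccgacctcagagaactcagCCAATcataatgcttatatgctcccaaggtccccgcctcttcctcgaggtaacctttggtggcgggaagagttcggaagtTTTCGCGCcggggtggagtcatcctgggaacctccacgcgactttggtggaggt
CDT1: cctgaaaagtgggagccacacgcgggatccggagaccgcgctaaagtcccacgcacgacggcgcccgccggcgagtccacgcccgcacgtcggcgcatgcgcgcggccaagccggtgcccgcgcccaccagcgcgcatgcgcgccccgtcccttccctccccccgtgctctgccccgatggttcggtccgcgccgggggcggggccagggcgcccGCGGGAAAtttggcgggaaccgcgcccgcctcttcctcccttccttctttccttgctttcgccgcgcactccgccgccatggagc
RRM2: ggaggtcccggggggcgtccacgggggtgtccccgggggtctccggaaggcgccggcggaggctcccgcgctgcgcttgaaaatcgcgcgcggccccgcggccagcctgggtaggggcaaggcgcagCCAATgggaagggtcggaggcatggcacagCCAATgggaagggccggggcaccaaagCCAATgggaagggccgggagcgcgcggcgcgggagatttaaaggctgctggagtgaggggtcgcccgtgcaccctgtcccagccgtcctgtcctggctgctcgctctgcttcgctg
TOP2A: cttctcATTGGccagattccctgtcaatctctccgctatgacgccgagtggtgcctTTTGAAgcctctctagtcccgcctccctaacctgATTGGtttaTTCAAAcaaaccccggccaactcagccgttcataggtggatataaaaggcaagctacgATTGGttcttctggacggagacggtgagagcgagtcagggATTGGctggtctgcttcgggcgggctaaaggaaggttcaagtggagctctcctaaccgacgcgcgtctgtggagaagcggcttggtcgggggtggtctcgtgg
CCNA2: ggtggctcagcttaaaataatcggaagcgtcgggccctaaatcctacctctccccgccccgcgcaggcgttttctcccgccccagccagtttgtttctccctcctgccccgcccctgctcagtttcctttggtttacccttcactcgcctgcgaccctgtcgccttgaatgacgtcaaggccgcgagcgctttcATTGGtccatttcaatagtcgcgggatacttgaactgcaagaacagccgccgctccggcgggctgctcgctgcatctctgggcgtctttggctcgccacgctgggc

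The MCM3 window held 2 E2F words and 3 CCAAT words, and the CDT1 window held 1 E2F word. The RRM2 window held 3 CCAAT words. The TOP2A window held 2 CHR words and 4 CCAAT words, and the CCNA2 window held 1 CCAAT word. Only the listed words were sought, so other forms of the E2F or CHR words would be neither marked nor counted. RefSeq promoters matched 33 of the 42 members by symbol, 15 of replication and 18 of mitosis. Genes were counted, and a gene with several starts had a word if any of its windows held it. An E2F word was present in 11 of the 15 replication genes (73.3%) and in 2 of the 18 mitotic genes (11.1%, CDK1 and NUSAP1). Over all 27305 genes with promoters the share was 3.99%. A CHR word was present in 2 of 15 replication genes (13.3%) and 12 of 18 mitotic genes (66.7%), beside 19.5% of all. CHR and CCAAT words stood together in 2 of 15 and 11 of 18 (61.1%), beside 7.85% of all. The members were picked for their known roles, so these shares describe the 2 groups, and a matched word is not a bound site. Of replication genes with promoters in H82, 5 of 5 called lower, 1 of 1 called higher (PCNA) and 5 of 9 not called had an E2F word. In H211 these were 4 of 6 called lower and 7 of 9 not called. Of mitotic genes with promoters in H82, 2 of 3 called lower, 1 of 2 called higher and 9 of 13 not called had a CHR word. In H211 these were 3 of 5 called lower and 9 of 13 not called.

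The same few genes led and closed the order of levels. MCM7, a helicase subunit, and PCNA, the sliding clamp of the polymerases, were the highest replication genes in all 4 groups of libraries. The cyclin E genes CCNE1 and CCNE2 and the origin gene ORC1 were the lowest, between 8.86 and 18.9 TPM in single libraries. Among mitotic genes UBE2C, the E2 enzyme of the anaphase-promoting complex, and the kinase gene AURKB led in H82, and UBE2C led in H211, followed by TOP2A in the controls. In treated H211 libraries TOP2A and BIRC5 came next with overlapping values (152 ± 2.2 and 151 ± 2.16 TPM, SD, n = 3). CENPE, a kinesin of the kinetochore, was the lowest in all 4 groups. The median replication gene stood at 69.5 TPM in H82 ORY-1001 libraries and 88.8 in H82 controls, and at 55.7 in H211 ORY-1001 libraries and 62.3 in H211 controls. The median mitotic gene stood at 114 and 116 TPM in treated and control H82 libraries and at 66.6 and 65.4 in treated and control H211 libraries.

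In H82, ORY-1001 went with lower levels of the licensing gene CDT1, the helicase genes MCM2 and MCM3, the factor E2F1 and the thymidylate synthase TYMS, and with a higher level of PCNA. These were 6 of 18 replication genes (33.3%), 1 higher and 5 lower. Over all genes tested in H82, 43.0% passed the same threshold of an adjusted p under 0.05, 19.1% higher and 23.9% lower. The median log2 fold change of the 18 was -0.06, beside -0.02 over all genes. With quantile normalization the replication calls were 3 higher and 7 lower. Fold changes for the drug are on the log2(TPM + 1) scale, ORY-1001 over control.

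CDT1, on chromosome 16, 88803213 to 88809258 (GRCh38), had 39.8, 44.1 and 47.0 TPM in ORY-1001 libraries, against 100.8, 94.6 and 102 TPM in controls. Every treated library lay below every control by a wide gap, and the mean was 2.28-fold lower (43.6 ± 3.62 and 99.3 ± 4.12, SD, n = 3 each; log2 fold change -1.17, SE 0.10, adjusted p = 4.25e-06, limma). It was the one member past a 2-fold change in either line. MCM3, on chromosome 6, 52264009 to 52284881, had 99.2, 95.2 and 97.8 TPM in ORY-1001 libraries, against 134, 132 and 137 TPM in controls. The groups did not overlap (log2 fold change -0.46, SE 0.04, adjusted p = 3.94e-06). MCM2, on chromosome 3, 127598223 to 127622436, had 163, 182 and 187 TPM with ORY-1001, against 210.6, 225 and 216 TPM without. Its treated libraries were again all lower (log2 fold change -0.29, SE 0.06, adjusted p = 0.00294). The other helicase subunits did not pass: MCM4, MCM5, MCM6 and MCM7 had log2 fold changes of -0.14, -0.06, -0.09 and -0.06.

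E2F1, on chromosome 20, 33675683 to 33686404, the activator of many replication genes, had 33.0, 35.1 and 33.6 TPM in treated H82 libraries, against 41.6, 43.5 and 45.0 TPM in controls. All treated libraries were lower (log2 fold change -0.35, SE 0.05, adjusted p = 0.000271). PCNA, on chromosome 20, 5114953 to 5126626, went the other way, with 316, 283 and 281 TPM in treated libraries, against 260.4, 251 and 248 TPM in controls. Each treated library was above each control, and the mean was 1.16-fold higher (log2 fold change 0.21, SE 0.05, adjusted p = 0.00788). TYMS averaged 161 ± 4.77 TPM with ORY-1001 and 174 ± 3.82 TPM without (SD, n = 3 each; log2 fold change -0.11, SE 0.03, adjusted p = 0.0189). Its call was lost without H82 ORY-1001 replicate 2 (adjusted p = 0.0747), H82 ORY-1001 replicate 3 (0.0511) or H82 control replicate 2 (0.079), within a range of 0.000219 to 0.0992 over 19 alternatives. The other 5 calls of replication genes in H82 held in all 19 alternatives. None of these separates treatment from the myeloid transcripts of the treated H82 libraries.

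Of the 24 mitotic genes in H82, TOP2A, CCNA2, UBE2C, NUSAP1, FOXM1 and TPX2 fell, and CCNB1 and KIF23 rose, 8 in all (33.3%). Over all genes tested in H82, 43.0% passed, 19.1% higher and 23.9% lower. The median log2 fold change of the 24 was -0.05, beside -0.02 over all genes. Of the 24, 18 were below 0, and the share of all genes below 0 was not computed. TOP2A, on chromosome 17, 40388516 to 40417950, the topoisomerase that untangles chromosomes, had 147, 142 and 144 TPM in ORY-1001 libraries, against 211.4, 204 and 201 TPM in controls. The treated libraries were all lower, with a mean 1.42-fold below that of the controls (log2 fold change -0.50, SE 0.03, adjusted p = 5.74e-07). CCNA2, on chromosome 4, 121816444 to 121823933, the cyclin of S phase and G2, had 68.4, 65.7 and 63.0 TPM with ORY-1001, against 83.6, 86.7 and 85.1 TPM without. Its groups did not overlap (log2 fold change -0.37, SE 0.04, adjusted p = 4.00e-05). UBE2C, on chromosome 20, 45812576 to 45816957, had 304, 295 and 294 TPM in treated libraries, against 360.2, 371 and 365 TPM in controls. All treated libraries were lower here too (log2 fold change -0.30, SE 0.04, adjusted p = 7.52e-05).

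NUSAP1, on chromosome 15, 41332694 to 41381050, a microtubule-binding protein of the spindle, had 220.4, 221 and 228 TPM with ORY-1001, against 259, 251 and 247 TPM without. The groups were apart (log2 fold change -0.18, SE 0.04, adjusted p = 0.00268). FOXM1, on chromosome 12, 2857681 to 2877155, a transcription factor of G2 and mitosis, had 35.5, 36.9 and 35.3 TPM in treated libraries, against 44.6, 42.5 and 41.97 TPM in controls. Every treated library was lower (log2 fold change -0.25, SE 0.06, adjusted p = 0.00723). TPX2, which activates Aurora A on the spindle, had an adjusted p of 0.00897 and a log2 fold change of -0.12, and its call was lost with equal column totals (-0.11, adjusted p = 0.0971, range 0.00267 to 0.0971 over 19 alternatives). CCNB1, the cyclin of mitotic entry, averaged 207 ± 15.5 TPM with ORY-1001 and 186 ± 5.45 TPM without (SD, n = 3 each; log2 fold change 0.15, SE 0.06, adjusted p = 0.0487). That call was lost in 13 of 19 alternatives, and without any single H82 library other than ORY-1001 replicate 3 the adjusted p was 0.0589 to 0.179. KIF23, a kinesin of cytokinesis, changed by 0.23 on the log2 scale (adjusted p = 0.0118), with an adjusted p of 0.0515 without H82 control replicate 3 (range 0.00404 to 0.0735 over 19 alternatives). AURKB, on chromosome 17, 8204733 to 8210600, the kinase of the chromosomal passenger complex, had 334, 309 and 306 TPM in treated libraries, against 338, 348 and 343 TPM in controls, and did not pass (log2 fold change -0.12, SE 0.06, adjusted p = 0.159), although its groups did not overlap.

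**Figure D1:**
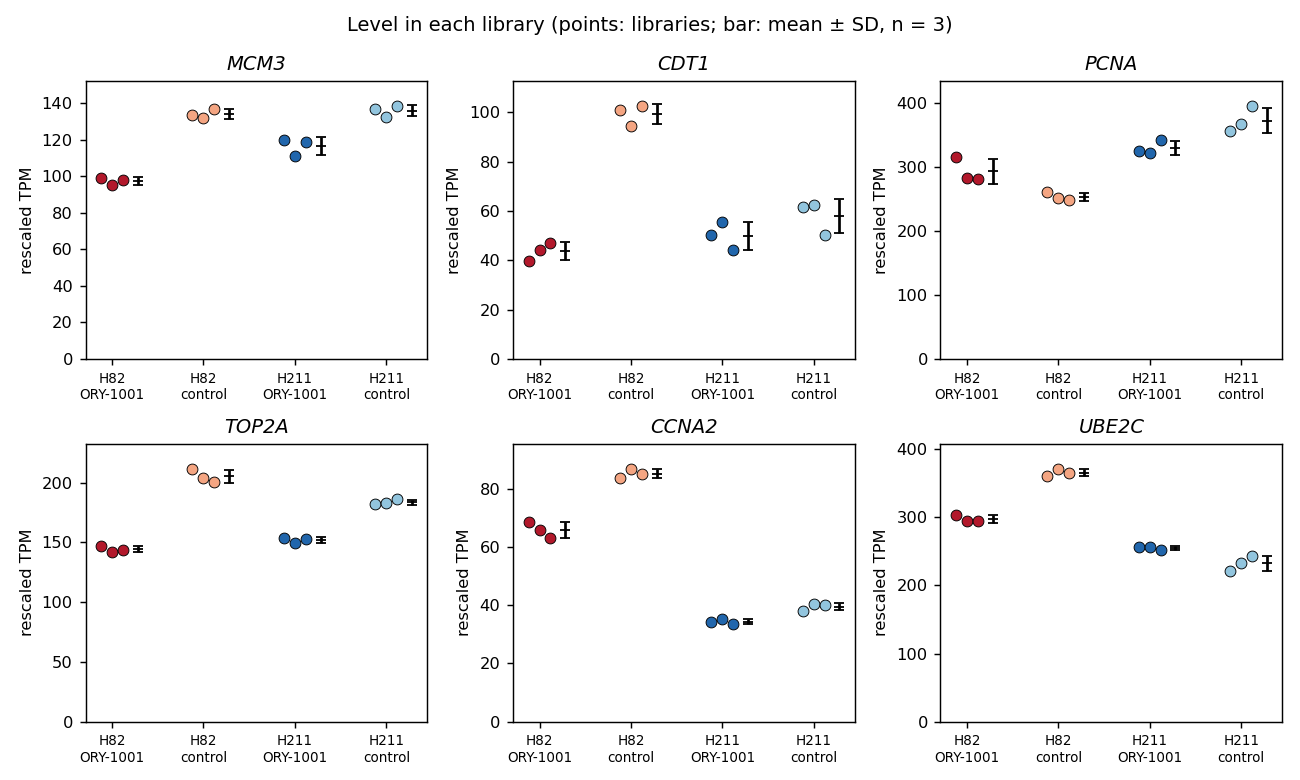
TPM of MCM3, CDT1, PCNA, TOP2A, CCNA2 and UBE2C in each of the 12 libraries, by line and treatment, with ORY-1001 left of control; points are libraries and bars are means with SD (n = 3). CDT1 averaged 43.6 ± 3.62 in treated and 99.3 ± 4.12 in control H82 libraries, and PCNA and UBE2C moved in opposite directions in the 2 lines.

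In H211, 7 of 18 replication genes (38.9%) fell and 0 rose (0 at an unadjusted p under 0.05 as well, limma), while 6 of 24 mitotic genes (25.0%) passed, 1 higher and 5 lower. Over all genes tested in H211, 18.6% passed, 8.95% higher and 9.61% lower. MCM2, MCM3, PCNA, RRM2, ORC1, E2F1 and CCNE2 fell among the replication genes, and TOP2A, CCNA2, KIF11, CENPE and BUB1B fell among the mitotic ones, where UBE2C rose. The median log2 fold change was -0.17 for replication and -0.04 for mitotic genes, beside -0.00212 over all genes. Without the 4 libraries, and so with 1 H211 control, 0 of 18 replication genes passed in limma (at an unadjusted p under 0.05, 1 was higher and 6 lower), while the log2 fold changes of these 7 genes were -0.19 to -0.55. The count was 3 to 5 when single libraries were left out, with 3 without H211 ORY-1001 replicate 1 and 4 without H211 control replicate 1 or 3.

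MCM3 had 119.7, 111 and 119 TPM in H211 ORY-1001 libraries, against 137, 133 and 138 TPM in controls. All treated libraries were lower (log2 fold change -0.22, SE 0.04, adjusted p = 0.00218). RRM2, on chromosome 2, 10120698 to 10131419, the small subunit of the ribonucleotide reductase that makes deoxynucleotides, had 66.6, 63.1 and 57.9 TPM with ORY-1001, against 76.5, 79.6 and 76.9 TPM without. Its groups did not overlap (log2 fold change -0.31, SE 0.06, adjusted p = 0.00325). MCM2 had 154, 154 and 136 TPM in treated libraries, against 184, 169.7 and 176 TPM in controls. Each treated library lay below each control (log2 fold change -0.25, SE 0.06, adjusted p = 0.0159). CCNE2, a cyclin of S phase entry, had 11.2, 12.9 and 14.1 TPM with ORY-1001, against 16.2, 16.9 and 18.02 TPM without. The groups were apart at this low level (log2 fold change -0.39, SE 0.10, adjusted p = 0.0223). ORC1, on chromosome 1, 52372829 to 52404459, had 14.1, 14.7 and 14.0 TPM in treated libraries, against 16.8, 15.6 and 16.5 TPM in controls. All of its treated libraries were lower (log2 fold change -0.18, SE 0.05, adjusted p = 0.0237).

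PCNA, higher with ORY-1001 in H82, had 325, 322 and 342 TPM in H211 ORY-1001 libraries, against 356, 367 and 395 TPM in H211 controls. Here all treated libraries were below the controls (log2 fold change -0.18, SE 0.05, adjusted p = 0.0405). E2F1 averaged 32.4 ± 1.83 TPM in treated libraries and 37.2 ± 1.28 TPM in controls (SD, n = 3 each; log2 fold change -0.19, SE 0.05, adjusted p = 0.0245). CDT1, the gene with the largest change in H82 among the members, had 50.3, 55.4 and 44.1 TPM in treated H211 libraries, against 61.8, 62.3 and 50.2 TPM in controls. These groups overlapped and the change did not pass (log2 fold change -0.21, SE 0.10, adjusted p = 0.165). Without H211 control replicate 3 it passed (-0.31, adjusted p = 0.0409, range 0.0409 to 0.734 over 19 alternatives). Without the 4 libraries MCM3, RRM2 and MCM2 had log2 fold changes of -0.26, -0.24 and -0.19, with adjusted p = 0.0851, 0.174 and 0.231, and over all 19 alternatives they ranged over 0.000326 to 0.0851, 0.000499 to 0.174 and 0.0108 to 0.231. MCM2 was also lost without H211 ORY-1001 replicate 3 (0.0562) or H211 control replicate 1 (0.0646). Of the 19 alternatives, MCM2 lost its call in 3, PCNA in 10, ORC1 in 7, E2F1 in 6 and CCNE2 in 4. Among single libraries left out, PCNA was lost without H211 ORY-1001 replicate 1 (0.113) or 2 (0.113) or control replicate 2 (0.0805) or 3 (0.126), within 0.00156 to 0.126. ORC1 was lost without ORY-1001 replicate 1 (0.0717) or 3 (0.0733) or control replicate 1 (0.0886) or 3 (0.059), within 0.0102 to 0.267. E2F1 was lost without ORY-1001 replicate 1 (0.0949) or 2 (0.0605) or control replicate 1 (0.065) or 3 (0.0732), within 0.0115 to 0.11. CCNE2 was lost without ORY-1001 replicate 1 (0.0857) or control replicate 2 (0.0588) or 3 (0.0679), within 0.00906 to 0.132.

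TOP2A had 154, 149 and 153 TPM in H211 ORY-1001 libraries, against 182, 183 and 186 TPM in controls. The treated libraries were all lower, and this was the only H211 call among the 42 members that held in all 19 alternatives (log2 fold change -0.27, SE 0.03, adjusted p = 0.000157; lower by a factor of 1.21). CCNA2 had 34.3, 35.2 and 33.5 TPM with ORY-1001, against 38.0, 40.2 and 40.1 TPM without. Its groups did not overlap (log2 fold change -0.20, SE 0.04, adjusted p = 0.00843), and the call was lost only without the 4 libraries, where 1 H211 control was left and the log2 fold change was -0.20 (adjusted p = 0.133, range 0.00126 to 0.133 over 19 alternatives). KIF11, on chromosome 10, 92593286 to 92655395, the kinesin that separates the spindle poles, had 17.5, 16.1 and 16.3 TPM in treated libraries, against 18.7, 19.9 and 18.6 TPM in controls. All treated libraries were lower (log2 fold change -0.18, SE 0.05, adjusted p = 0.0185). CENPE, on chromosome 4, 103105806 to 103198409, had 1.76, 1.32 and 2.66 TPM with ORY-1001, against 3.69, 2.74 and 4.27 TPM without. These low values were apart by little (log2 fold change -0.66, SE 0.18, adjusted p = 0.0243).

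BUB1B, on chromosome 15, 40161023 to 40221136, a kinase of the spindle checkpoint, had 49.1, 40.5 and 47.3 TPM in H211 ORY-1001 libraries, against 50.4, 58.2 and 57.1 TPM in controls. The groups did not overlap (log2 fold change -0.27, SE 0.08, adjusted p = 0.034). UBE2C had 256, 257 and 251 TPM in treated H211 libraries, against 221, 233 and 243 TPM in controls. In this line its treated libraries were all higher (log2 fold change 0.13, SE 0.04, adjusted p = 0.0291). The UBE2C call was lost in 12 of 19 alternatives, and without any one H211 library except control replicate 3 its adjusted p was 0.0520 to 0.113. Of the same 19, KIF11 lost its call in 5, CENPE in 6 and BUB1B in 10. KIF11 was lost without ORY-1001 replicate 2 (0.0623) or 3 (0.0596) or control replicate 2 (0.0751), within 0.011 to 0.375. CENPE was lost without ORY-1001 replicate 1 (0.0716) or 2 (0.0845) or control replicate 1 (0.0741) or 3 (0.0798), within 0.00839 to 0.0876. BUB1B was lost without ORY-1001 replicate 2 (0.109) or 3 (0.0516) or control replicate 2 (0.117) or 3 (0.0921), within 0.0119 to 0.175. The count of mitotic calls ran from 2, without ORY-1001 replicate 2, to 5, and was 3 without ORY-1001 replicate 3 or control replicate 2. With columns rescaled to equal totals, the H211 mitotic calls split into 0 higher and 7 lower. AURKB had 67.8, 69.8 and 75.5 TPM in treated libraries, against 67.1, 67.9 and 78.9 TPM in controls, and these groups overlapped (log2 fold change -0.00267, SE 0.06, adjusted p = 0.99).

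**Figure D2:**
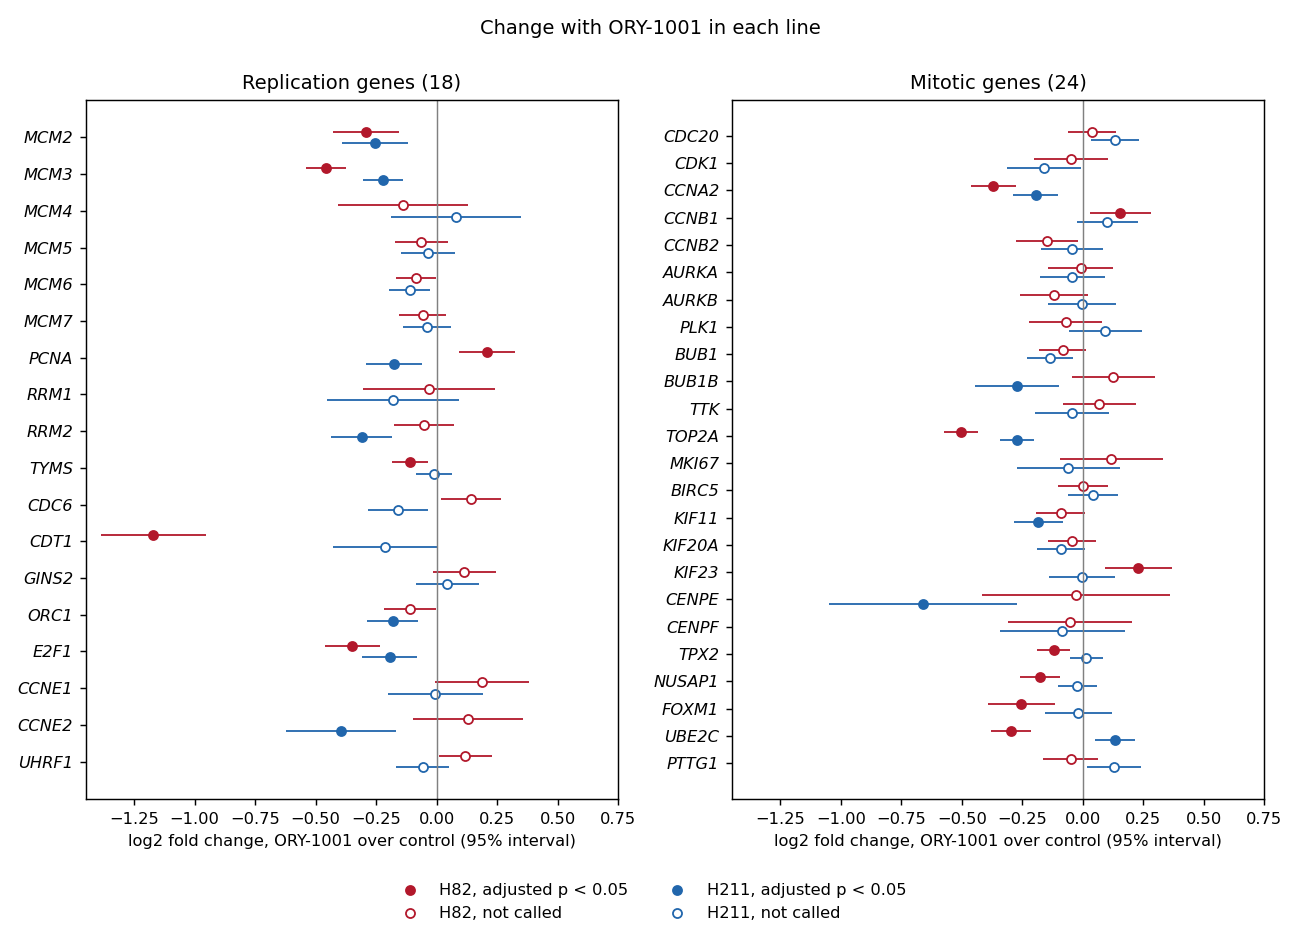
Log2 fold change, ORY-1001 over control, of each of the 18 replication and 24 mitotic genes in H82 (red) and H211 (blue), with 95% intervals; filled points passed an adjusted p under 0.05. CDT1 in H82 stands lowest at -1.17, while in H211 no member but CENPE (-0.66) moved by more than 0.40 in either direction.

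Between the lines, 5 members were called lower with ORY-1001 in both, namely MCM2, MCM3, E2F1, TOP2A and CCNA2. PCNA was called higher in H82 and lower in H211, and UBE2C lower in H82 and higher in H211. In neither line was a call made for 9 replication genes and 13 mitotic genes. Over all genes 43.0% passed in H82 and 18.6% in H211, and the share with each joint pattern of calls was not computed. Of the members not called in H82, 6 replication and 2 mitotic genes passed in some alternative. In H211 these were 3 and 4. The difference between the effects, H211 minus H82, was tested in the same fit, where 32.1% of all genes passed, 17.8% with a positive and 14.3% with a negative difference. Of the replication genes 6 passed, 2 positive and 4 negative, and of the mitotic genes 6 passed, 5 positive and 1 negative. With equal column totals the mitotic split was 2 positive and 2 negative. CDT1 had the widest difference (log2 fold change 0.96, SE 0.14, adjusted p = 0.000415; effects -0.21 in H211 and -1.17 in H82). UBE2C differed by 0.43 (SE 0.05, adjusted p = 0.000125) and PCNA by -0.38 (SE 0.07, adjusted p = 0.00268), each with effects of opposite sign. TOP2A (0.23) and MCM3 (0.24) fell less in H211 than in H82. CCNE2, RRM2, BUB1B and CDC6, which helps load the helicase, had more negative effects in H211. BUB1B had 115, 109.7 and 118 TPM in treated H82 libraries, against 112, 104 and 98.3 TPM in H82 controls, groups that overlapped and did not pass in that line (log2 fold change 0.13). The calls of CDT1, UBE2C, PCNA and CCNE2 held in all 24 alternatives. The calls of TOP2A, BUB1B and CDC6 were lost only without the 4 libraries, where the differences were 0.20, -0.45 and -0.32 with 1 H211 control left. The MCM3 call was lost there too (0.20, adjusted p = 0.127) and with equal column totals (0.18, 0.0846), within 0.00298 to 0.127 over 24 alternatives. Mitotic calls numbered 3 without the 4 libraries, and also 3 without any single H82 control, without H211 ORY-1001 replicate 1 or 2 or without H211 control replicate 3, and 4 to 8 without any other single library.

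Untreated H211 libraries had lower levels of most mitotic genes than untreated H82 libraries, and a more even split of replication genes. Of the 24 mitotic genes 22 passed (91.7%), 3 higher and 19 lower in H211. Of the 18 replication genes 16 passed (88.9%), 6 higher and 10 lower. Over all genes 80.5% passed, 39.7% higher and 40.8% lower in H211. The median log2 difference, H211 over H82, was -0.69 for mitotic genes and -0.19 for replication genes. Rescaling the columns to equal totals moved the median of all genes by 0.12, or 0.17 without mitochondrial genes. With equal totals the replication calls split into 8 higher and 7 lower and the mitotic ones into 5 higher and 17 lower.

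AURKB was the mitotic gene furthest apart, with 67.1, 67.9 and 78.9 TPM in H211 controls, against 338, 348 and 343 TPM in H82 controls. No H211 library came near an H82 one, and the mean was 4.81-fold lower in H211 (log2 fold change -2.25, SE 0.06, adjusted p = 2.16e-11). NUSAP1 had 70.9, 73.9 and 71.3 TPM in H211 controls, against 259, 251 and 247 TPM in H82 controls. It was 3.5-fold lower in H211 (log2 fold change -1.79, SE 0.04, adjusted p = 2.64e-12). CDC20, on chromosome 1, 43358955 to 43363203, the activator of the anaphase-promoting complex, had 70.6, 63.7 and 69.0 TPM in H211 controls, against 231, 235 and 245 TPM in H82 controls. This was 3.49-fold lower in H211 (log2 fold change -1.79, SE 0.05, adjusted p = 1.05e-11). PTTG1, the securin that holds back separase, and CCNA2 were also more than 2-fold lower in H211 (log2 differences -1.27 and -1.09). CDK1, the checkpoint kinase TTK and FOXM1 were the mitotic genes higher in H211 (0.23, 0.30 and 0.54). BUB1, a checkpoint kinase, and BIRC5, the passenger protein survivin, did not pass (0.03 and 0.07). With equal column totals both passed as higher in H211 (0.163 and 0.195). The other mitotic genes called lower in H211 were CCNB1, CCNB2, AURKA, PLK1, BUB1B, TOP2A, MKI67, KIF11, KIF20A, KIF23, CENPE, CENPF, TPX2 and UBE2C. TOP2A was close to even (log2 fold change -0.16, SE 0.03, adjusted p = 0.000652) and moved to 0.024 (adjusted p = 0.504) with equal totals without mitochondrial genes, within 5.97e-05 to 0.513 over 19 alternatives. The call of CENPF was also lost with equal totals, and that of CENPE without H82 control replicate 1 (adjusted p = 0.0501) or H211 control replicate 2 (0.0606), within 0.00649 to 0.111.

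Among replication genes, RRM2 had 76.5, 79.6 and 76.9 TPM in H211 controls, against 199, 222 and 219 TPM in H82 controls. It was 2.75-fold lower in H211 (log2 fold change -1.44, SE 0.06, adjusted p = 3.57e-10). RRM1, the large subunit of the same enzyme, was higher in H211 (166 ± 19.7 and 93.4 ± 17.2 TPM in H211 and H82 controls, SD, n = 3 each; log2 fold change 0.83, SE 0.12, adjusted p = 5.83e-05). MCM6, on chromosome 2, 135839626 to 135876426, had 40.7, 38.2 and 39.4 TPM in H211 controls, against 82.9, 86.4 and 83.1 TPM in H82 controls. All H211 libraries were lower (log2 fold change -1.08, SE 0.04, adjusted p = 1.56e-10). MCM7, on chromosome 7, 100092728 to 100101940, had 255, 246 and 269 TPM in H211 controls, against 415, 415 and 429 TPM in H82 controls. Here too the lines were apart (log2 fold change -0.71, SE 0.04, adjusted p = 2.56e-08). MCM3 and CCNE1 did not pass (0.02 and 0.12), but both passed as higher in H211 with equal column totals (0.149 and 0.240). MCM2, MCM4, MCM5, GINS2 of the helicase complex, CDT1, ORC1 and E2F1 were the others called lower in H211. The calls of MCM2, ORC1 and E2F1 were lost with equal totals, ORC1 at 0.0045 without mitochondrial genes, and those of ORC1 (-0.15) and E2F1 (-0.17) without the 4 libraries. PCNA, CCNE2, CDC6, TYMS and UHRF1, which guides DNA methylation to new strands, were higher in H211 by 0.55, 0.68, 0.59, 0.22 and 0.27.

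With ORY-1001 present, too, most mitotic genes were lower in H211 than in H82. Of all genes 80.2% passed between treated H211 and treated H82 libraries, 39.7% higher and 40.6% lower. Of the mitotic genes 20 passed, 2 higher and 18 lower, and of the replication genes 13 passed, 5 higher and 8 lower; with equal totals these splits were 5 and 18, and 6 and 8, and with mitochondrial genes left out as well 6 and 17, and 8 and 6. The 18 mitotic genes called lower in treated H211 libraries were all among the 19 called lower in H211 controls. Over all genes 40.8% were lower between controls and 40.6% between treated libraries, and the share lower in both was not computed. The replication genes MCM3, PCNA, RRM1, TYMS and CDC6 were higher in treated H211 libraries, and MCM2, MCM4, MCM5, MCM6, MCM7, RRM2, GINS2 and ORC1 lower. CDK1, BUB1, TOP2A and BIRC5 were the mitotic genes that did not pass. With equal column totals CDK1 and BIRC5 passed as higher in H211 (0.185 and 0.177). BUB1 passed only with mitochondrial genes left out as well (0.112). TTK and FOXM1 were the mitotic genes called higher in treated H211 libraries. The TTK call was lost without H82 ORY-1001 replicate 2 (adjusted p = 0.0991) or 3 (0.0578) or H211 ORY-1001 replicate 2 (0.0604) or 3 (0.0937), within 0.00106 to 0.147. The PCNA call was lost without the 4 libraries (log2 difference 0.11, adjusted p = 0.119, within 1.80e-05 to 0.119). CDC20 had 70.8, 75.4 and 76.8 TPM in treated H211 libraries, against 243, 245 and 241 TPM in treated H82 libraries (log2 fold change -1.70, SE 0.05, adjusted p = 1.71e-11). All H211 values were well below the H82 values. AURKB and NUSAP1 were 4.45-fold and 3.14-fold lower in H211. RRM2, at 213, 200.4 and 203 TPM in treated H82 libraries, had a log2 difference of -1.70. MCM6 had 36.8, 35.9 and 36.5 TPM in treated H211 libraries, against 78.8, 77.4 and 81.7 TPM in treated H82 libraries, and its lines were apart (log2 fold change -1.10, SE 0.04, adjusted p = 1.38e-10). MCM7 had 257, 243 and 249.5 TPM in treated H211 libraries, against 398, 387 and 424 TPM in treated H82 libraries. These lines were also apart (log2 fold change -0.69, SE 0.04, adjusted p = 3.47e-08). CDT1 did not pass between treated lines (0.19, adjusted p = 0.0965), whereas between controls it was lower in H211 (-0.77, adjusted p = 1.61e-05). TOP2A too did not pass between treated lines (0.07, adjusted p = 0.0555). Both passed, as higher in H211, with equal totals, and each passed without 1 library: CDT1 without H211 ORY-1001 replicate 3 (0.0258) and TOP2A without H82 ORY-1001 replicate 1 (0.0363), within 0.00484 to 0.329 and 0.000113 to 0.263 over 19 alternatives.

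**Figure D3:**
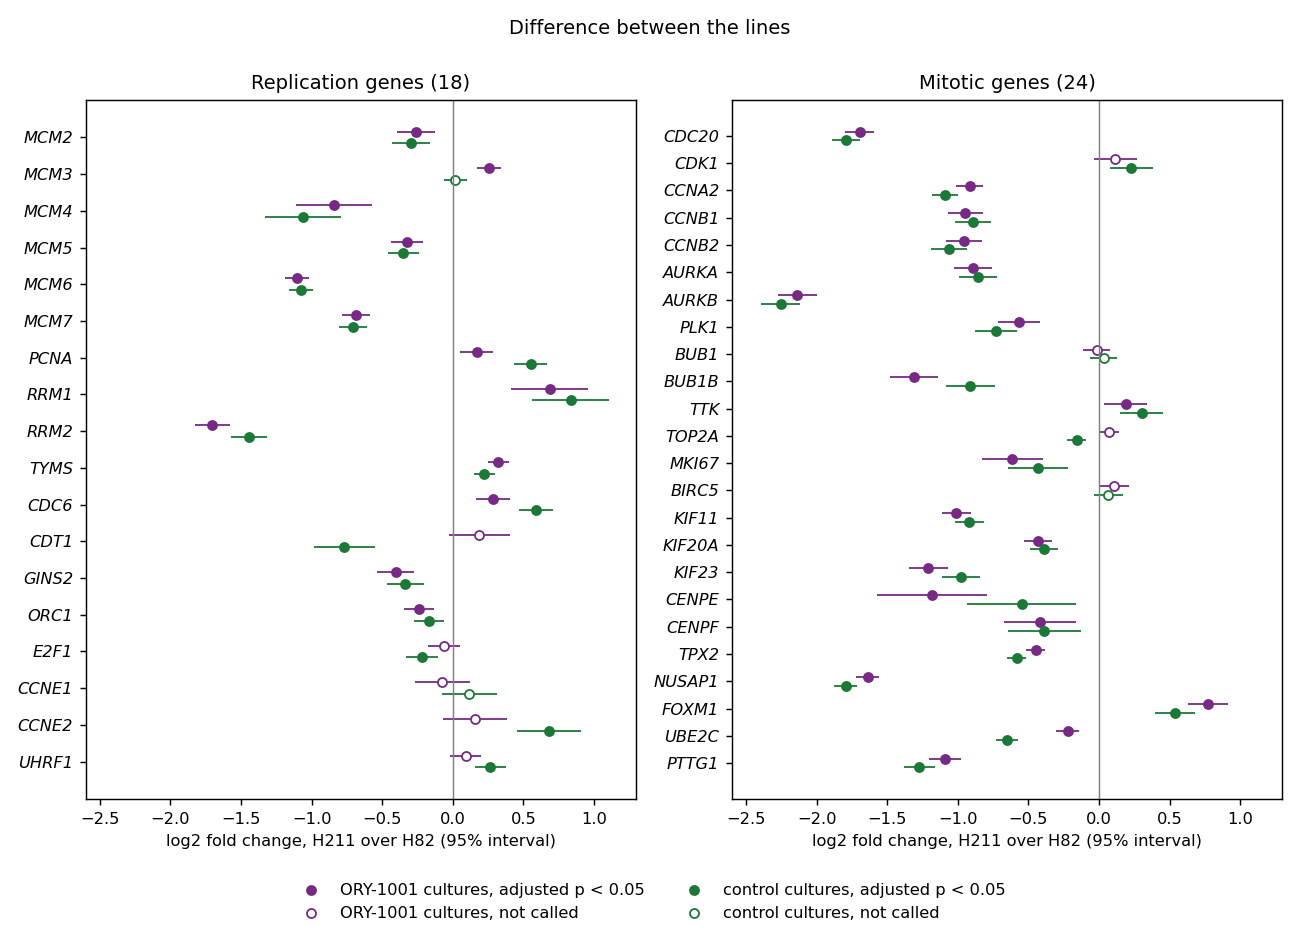
Log2 difference, H211 over H82, of each replication and mitotic gene between ORY-1001 libraries (purple) and between control libraries (green), with 95% intervals. AURKB stands at -2.14 and -2.25, and 18 mitotic genes were called lower in both comparisons. The share of all genes lower in both was not computed.

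The gap between the replication mean and the mitotic mean differed between lines more than between treatments. Over all genes, the median absolute log2 fold change was also larger between lines, at 0.75 in controls and 0.73 in treated libraries. With ORY-1001 it was 0.23 in H82 and 0.14 in H211. These values carry no test. The mean log2(TPM + 1) of the replication genes minus that of the mitotic genes was 0.32 ± 0.026 in H211 ORY-1001 libraries and 0.39 ± 0.030 in H211 controls, against -0.17 ± 0.044 in H82 ORY-1001 libraries and -0.13 ± 0.054 in H82 controls (SD, n = 3 each). So every H211 library had a positive value and every H82 library a negative one. The mean over replication genes was lower with ORY-1001 by 0.11 in H82 and 0.13 in H211, and the mean over mitotic genes by 0.07 in each line. The median replication gene changed by -0.06 in H82, where CDT1 had -1.17, and by -0.17 in H211. Its median log2 difference between lines, H211 over H82, was -0.19 in controls and -0.07 in treated libraries. With equal column totals the replication medians between lines were -0.07 and -0.002, beside -0.05 in H82 and -0.21 in H211 for ORY-1001. Between untreated lines the replication mean was 0.17 lower in H211 and the mitotic mean 0.69 lower. Members were chosen with earlier results known, so no p is given for such means.

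**Figure D4:**
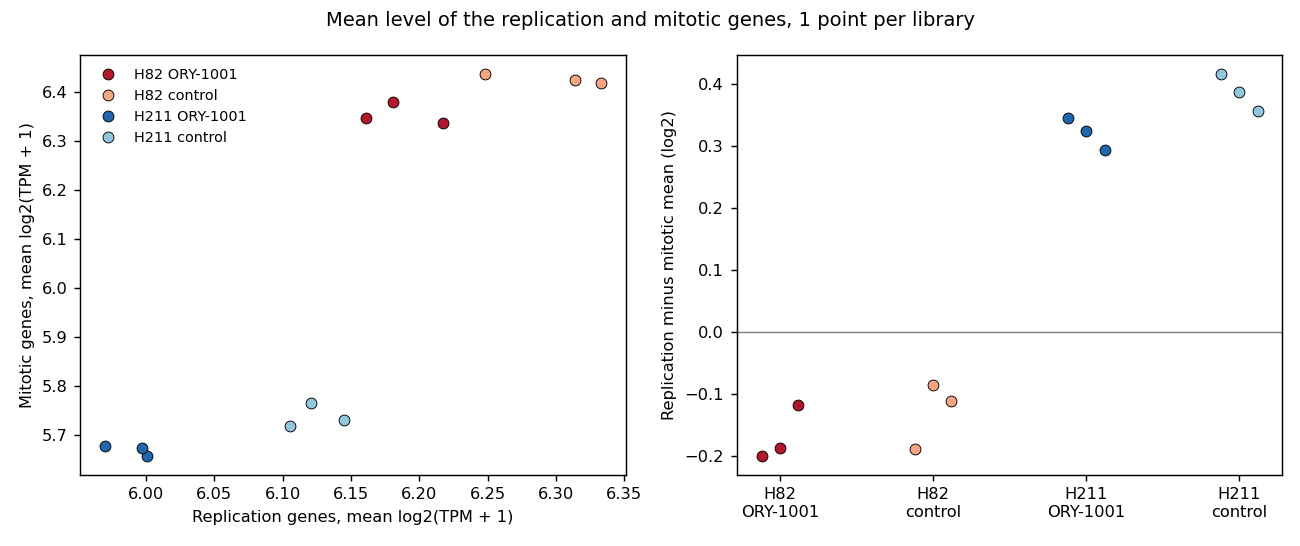
Left, mean log2(TPM + 1) of the 18 replication genes against that of the 24 mitotic genes in each of the 12 libraries; right, the replication mean minus the mitotic mean by group, with ORY-1001 left of control. H211 libraries average 0.32 and 0.39 with and without ORY-1001, and H82 libraries -0.17 and -0.13.

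Other genes of the cell cycle were read from 10 further lists by role, beside 19.1% of all genes called higher and 23.9% lower in H82 (43.0% in all). Of the 10, the polymerase and fork, E2F and MuvB, spindle, kinetochore and cyclin lists had 36.4% to 45.0% of their genes called, near that share. In H82, 8 of 16 other origin genes rose in limma and 0 fell with ORY-1001 (10 and 0 at an unadjusted p under 0.05), among them ORC6, an origin recognition subunit (0.42, adjusted p = 0.000192), and GINS1, of the helicase complex (0.30, 0.000204). Of 20 polymerase and fork genes 4 rose and 5 fell, with the clamp loader RFC3 at 0.37 and the polymerase POLD1 at -0.25. Of 8 nucleotide supply genes 1 rose, the kinase DTYMK (0.35), and 3 fell, DCK among them (-0.30). Of 15 E2F and MuvB genes 3 rose and 3 fell, with E2F4 at 0.45 and its partner TFDP1 at 0.35. Of 13 condensin and cohesin genes 9 fell and 0 rose (11 and 0 at an unadjusted p under 0.05), median -0.26. The cohesin subunit RAD21 averaged 116 ± 2.89 TPM with ORY-1001 and 206 ± 3.09 TPM without (SD, n = 3 each; log2 fold change -0.83, SE 0.03, adjusted p = 8.54e-09), and the condensin subunit NCAPD2 had a log2 fold change of -0.57.

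Of 19 other spindle and cytokinesis genes in H82, 7 fell and 1 rose, with the kinesin KIF2C at -0.41 and the centrosome kinase NEK2 at -0.54. Kinetochore genes split into 4 higher and 4 lower of 22, with ZWILCH at 0.34 and SPC24 at 0.29. Of 17 genes of the anaphase-promoting complex and its helpers 7 rose and 2 fell, with the subunit ANAPC5 at 0.52. UBE2S, the E2 enzyme that extends the chains UBE2C starts, fell to 881 ± 35.8 TPM with ORY-1001, against 1130 ± 34.8 TPM without (SD, n = 3 each; log2 fold change -0.36, SE 0.05, adjusted p = 0.000222). In H211 it rose, to 331 ± 22.7 TPM with ORY-1001, against 261 ± 7.8 TPM without (log2 fold change 0.34, SE 0.05, adjusted p = 0.00107). These are the directions of UBE2C in the same lines. Of 14 other cyclin and CDK genes 2 rose and 4 fell in H82, with the D cyclin CCND3 at -0.66 and the CDK1 inhibitor kinase WEE1 at -0.38. Of 11 genes of CDK inhibitors and the RB family 3 rose and 4 fell, with CDKN2C (p18) at 0.64 and CDKN1B (p27) at -0.29.

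In H211 the same 10 lists gave the following counts, beside 8.95% of all genes called higher and 9.61% lower (18.6% in all). Kinetochore, nucleotide supply, anaphase-promoting complex and CDK inhibitor genes had 12.5% to 18.2% called, at or below that share. In this line a list with no rise named had 0 genes higher at an unadjusted p under 0.05 too. Other origin genes split into 1 higher, ORC4 (0.32), and 4 lower of 16, with TOPBP1 at -0.38. Of 20 polymerase and fork genes 5 fell, among them POLD1 (-0.18) and the primase PRIM1 (-0.18), and 1 of 8 nucleotide supply genes fell, DCK (-0.23). E2F and MuvB genes split into 2 higher and 5 lower of 15, with the repressor E2F8 at -0.47 and TFDP2 at -0.42. Of 22 kinetochore genes 3 fell, SPC25 (-0.34) and the cohesin protector SGO1 (-0.44) among them. Of 19 spindle genes 6 fell, with the cytokinesis protein ANLN at -0.33 and NEK2 at -0.28. Of 13 condensin and cohesin genes 4 fell, with separase, ESPL1, at -0.59 and NCAPD3 at -0.22. Of 17 genes of the anaphase-promoting complex 2 rose and 1 fell, its inhibitor FBXO5 (-0.17). Cyclin and CDK genes split into 2 higher and 2 lower of 14, with CKS2 at 0.31 and CDK2 at -0.18, and CDK inhibitors and the RB family into 1 higher, CDKN2A (0.21), and 1 lower, CDKN2D (-0.54), of 11.

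**Figure D5:**
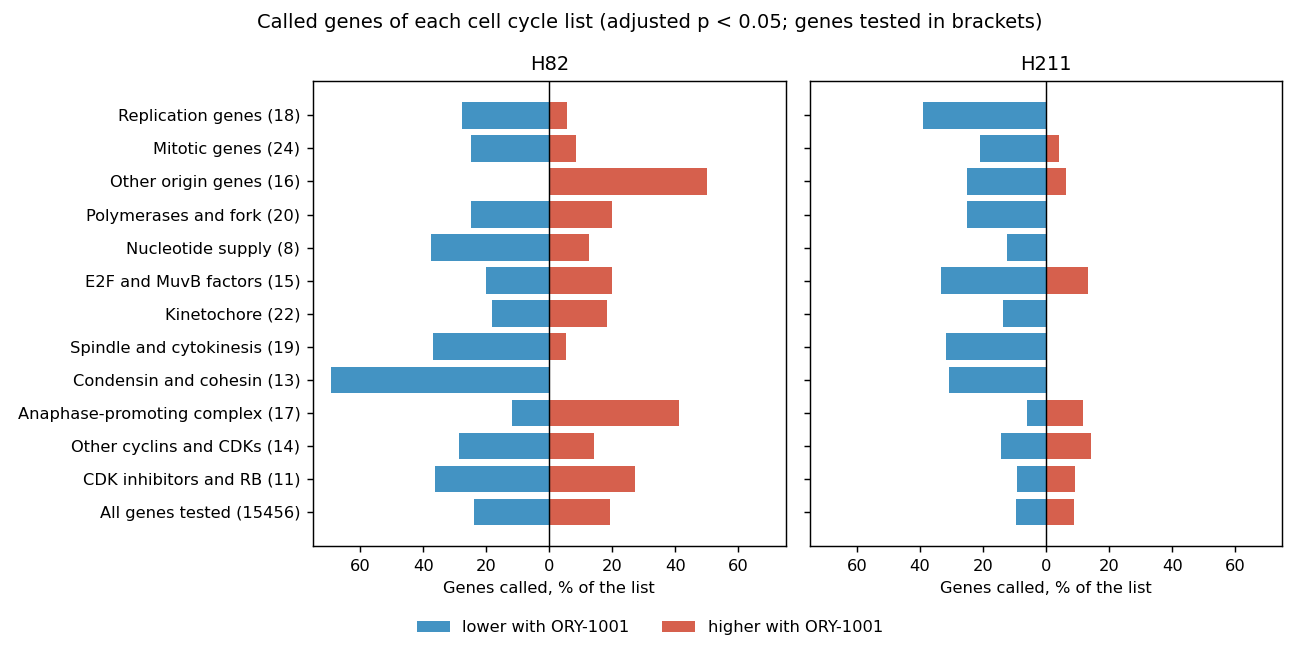
Share of the genes tested in each of the 12 cell cycle lists that was called higher (red) or lower (blue) with ORY-1001 in H82 and H211, beside all 15456 genes. In H82 the condensin and cohesin list has 9 of 13 lower and the other origin list 8 of 16 higher; in H211 the replication list has 7 of 18 lower.

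Some members share exon bases with other genes in GENCODE 29 (GRCh38), and the use of strand in quantifying is not stated by the labels or notes. CCNE2 shared 37.0% of its exon bases with INTS8 on the opposite strand, TYMS 39.2% with ENOSF1, FOXM1 15.9% with ITFG2 and CCNA2 9.08% with EXOSC9. NUSAP1 shared 62.2% with a readthrough gene on the same strand and RRM2 20.2% with AC007240.1. MCM2 shared 22.7% with AC023593.1 on the opposite strand. Reads of these pairs may be split or joined, so the values of all these members carry that uncertainty. Between controls, H211 over H82, the log2 differences of EXOSC9, ENOSF1 and AC007240.1 were -1.07, 1.59 and -2.02. Those of CCNA2, TYMS and RRM2 were -1.09, 0.22 and -1.44. INTS8 and ITFG2 had -0.05 and -0.12, beside 0.68 and 0.54 for CCNE2 and FOXM1. Whether shared reads had a part was not tested.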

How the data were processed

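Messenger RNA of H82 and H211 cells was sequenced in 12 libraries. Oligo(dT) selection, the NEBNext Ultra II chemistry, paired-end HiSeq reads and bcl2fastq 2.17 are recorded per the labels' protocols. Tools listed per the submitters' processing notes are R 4.0.4, sleuth 0.30.0, Salmon 1.1.0, DESeq2, Subread 1.5.2 (featureCounts), STAR 2.5.2b and Trimmomatic 0.36, on hg38, with no role or order. The deposited signal is TPM that the authors appear to have rescaled between libraries, since column totals differ; the tests had been planned for plain TPM and were kept. Depth is unknown, so no counting error can be given. Of 56508 symbols, 24415 were at 0 in every library and 27 carried dates in place of symbols.

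Values were taken as log2(TPM + 1), which understates the change of low genes. Genes at 1 or more in at least 3 libraries (15456) were fitted with 4 group means in limma 3.58.1 (R 4.3.3, eBayes with trend, no replicate block), which was tested on simulated data. P-values were two-sided, adjusted by Benjamini-Hochberg over all genes tested, and called under 0.05. The 42 members, the 10 further lists and the tests were chosen with earlier results of these data known. Values in every library are given for TOP2A, AURKB, and, in each group of genes, the 5 members with the smallest p per ORY-1001 contrast and the 3 with the smallest p in the difference of effects and in each contrast between lines; 2 genes per further list are named where called. Promoters came from RefSeq (GRCh38.p14) and gene positions from GENCODE 29. Alternatives changed the pseudocount, filter, scaling, variance prior, library weights, libraries fitted, replicate block and libraries left out. Tables were handled in Python 3.11.15 with pandas 2.3.3.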

Additional observations from a re-analysis of the deposited data

Results flagged for a closer look

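For 12 of the 42 members (28.57%) the effect of ORY-1001 differed between H211 and H82 by the test of the difference itself. Over all genes 32.1% passed that test. Differences are given here as the log2 fold change in H211 minus that in H82. Positive differences were found for UBE2C (0.43, SE 0.05, adjusted p = 0.000125), CDT1 (0.96, SE 0.14, adjusted p = 0.000415), TOP2A (0.23, SE 0.05, adjusted p = 0.00272), MCM3 (0.24, SE 0.05, adjusted p = 0.00623), TPX2 (0.14, SE 0.04, adjusted p = 0.0368), NUSAP1 (0.16, SE 0.05, adjusted p = 0.0435) and CCNA2 (0.17, SE 0.06, adjusted p = 0.0443). Negative differences were found for PCNA (-0.38, SE 0.07, adjusted p = 0.00268), CDC6 (-0.30, SE 0.08, adjusted p = 0.0132), BUB1B (-0.40, SE 0.11, adjusted p = 0.0182), CCNE2 (-0.52, SE 0.15, adjusted p = 0.0183) and RRM2 (-0.26, SE 0.08, adjusted p = 0.0291). UBE2S, picked after its values were seen, differed by 0.70, SE 0.07, adjusted p = 5.06e-05. For UBE2C, UBE2S and PCNA the effects had opposite signs in the lines and passed in both. In H211 the UBE2C call was lost in 12 of 19 alternatives and the PCNA call in 10. In the test of the difference MCM3 lost its call in 2 of 24 alternatives, RRM2 in 7, TPX2 in 15, NUSAP1 in 16 and CCNA2 in 18. Alternatives for UBE2S were not computed.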

How the results depend on the processing

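Counts of members called stayed within 1.5 times the reported count in all alternatives except the following. In H82, quantile normalization gave 10 replication genes (3 higher, 7 lower), where 6 were reported. In H211, leaving out the 4 libraries that differed from their groups in blood transcripts, which keeps 1 H211 control, gave 0 replication genes and 3 mitotic genes, and fitting only the 6 H211 libraries gave 2 mitotic genes, where 7 and 6 were reported. For the difference between the effects, 3 mitotic genes passed without a trend in the variance and 3 without the 4 libraries, where 6 were reported. Leaving out each library in turn gave 5 to 7 replication and 6 to 8 mitotic genes in H82, 3 to 5 and 2 to 5 in H211, 5 to 6 and 3 to 8 for the difference, 16 and 21 to 22 between controls, and 13 to 14 and 19 to 22 between treated lines. TOP2A, lower in H211 than in H82 controls as reported, had a log2 difference of 0.024 (adjusted p = 0.504) with equal totals after leaving out mitochondrial genes. The causes were not tested.

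Same-numbered libraries showed no shared deviation (correlations of deviations from group means -0.080 to 0.045 over 12 pairs), and 1 library correlated best with its own number. With 3 libraries a group, this check cannot show whether the numbers mark a shared culture or day. With a replicate block, 6 replication and 7 mitotic genes passed in H82, 6 and 4 in H211, 6 and 4 for the difference, 16 and 22 between controls and 13 and 20 between treated lines. With 3 libraries a group and unknown depth, small changes of low genes such as CENPE and MKI67 are the least certain.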
